A study of Homo sapiens with 6 samples.

Results

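Heat shock factor 1 and 9 chaperone genes were followed in colorectal cancer cells depleted of BZW2. The 10 genes were chosen by name and matched by Ensembl identifier among the 13021 identifiers that had 1 row in the deposited table. All 10 were listed in all 3 cell lines, as were 10875 genes in the whole series. They comprised HSF1, 7 cytosolic chaperone genes (HSPA1A, HSPA1B, HSPA8, DNAJB1, HSPH1, HSP90AA1 and HSPB1) and 2 genes for the mitochondrial chaperonin (HSPD1 and HSPE1).

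HSF1 is the transcription factor of the heat shock response. It is held inactive in unstressed cells, and when unfolded proteins accumulate it forms trimers that bind inverted repeats of the letters GAA, called heat shock elements, near the start of chaperone genes. HSP70 proteins bind exposed hydrophobic stretches of client proteins in cycles that J-domain proteins start and nucleotide exchange factors end, HSP90 completes the folding of kinases and receptors, small heat shock proteins hold aggregating proteins, and HSP60 with HSP10 fold proteins inside mitochondria. Tumour cells, colorectal ones included, are known for high chaperone levels.

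Cells that stably expressed a lentiviral short hairpin RNA (shRNA) against BZW2, whose protein resembles eIF5 of translation initiation, were compared with cells that stably expressed a non-targeting shRNA, in order to find genes and pathways altered by the knockdown. Each of HCT116, HT29 and SW480, which are established human colorectal cancer lines, gave 1 BZW2 shRNA library and 1 non-targeting library. The sample titles write HCT116 as HCT116WT, a mark the other lines do not carry and the labels do not explain. All cells, controls included, had been infected with lentivirus and selected with puromycin at 1 µg/ml. The deposited columns carry the same hairpin name in each line, so no repeat with another hairpin was analysed here. Whether the cells were pools or clones is not given in the sources used here, and no temperature shift or chaperone inhibitor is named in the labels.

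Reads over listed genes ranged from 2187373 in the HCT116 BZW2 shRNA library to 9317444 in the HT29 non-targeting library. With BZW2 shRNA, BZW2 stood at 17.6% (HCT116), 8.69% (HT29) and 13.5% (SW480) of its non-targeting level. The BZW2 log2 ratios were −2.47, −3.51 and −2.85, at percentiles 6.84, 0.0594 and 0.296 of all genes in those lines. With trends on GC content and length removed they were −1.08, −3.14 and −3.04, so the HCT116 value was the one that shrank most. In HCT116 the ratio of BZW2 shRNA to non-targeting shRNA spread over all genes with an SD of 1.59 on the log2 scale, against 0.64 in HT29 and 0.69 in SW480. It also followed the GC content of the transcript in HCT116, with a Spearman correlation across genes of 0.68, against 0.34 in HT29 and −0.06 in SW480. Of 11 markers of colorectal epithelium, 6 were listed in each line, with a summed level of 13052 CPM with BZW2 shRNA against 4227 CPM with non-targeting shRNA in HCT116, 9032 against 10411 CPM in HT29, and 6682 against 6599 CPM in SW480. This sum was thus well above its control in HCT116, the line in which all 10 members were higher, where 5633 of 11363 genes were. Of 5 mesenchymal markers, 1 to 4 were listed, with a summed level of 1.90 to 39.1 CPM with BZW2 shRNA and of 4.29 to 77.0 CPM with non-targeting shRNA, lower with BZW2 shRNA in each line. The part of these cell states in the results was not tested. Of 3 blood and 2 endothelial markers, 0 were listed in any line. In bulk RNA fewer cells of a type and less RNA per cell cannot be told apart.

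The promoters of the members are shown here because HSF1 recognises them by sequence. RefSeq windows on GRCh38.p14, from 250 bases before to 50 after a gene's start, were searched for the letters GAANNTTCNNGAA and TTCNNGAANNTTC, which read as each other on opposite strands and hold 3 units. These letters were found in 0.490% of all 35116 windows, and in 3 of the 13 windows of the 9 members that had one, namely 1 each of HSPA8, HSP90AA1 and HSPD1. Counted by gene, with any of its windows, 0.608% of 27305 genes and 3 of the 9 members had them. The shorter letters GAANNTTC and TTCNNGAA, which hold 2 units and lie within the longer ones, were found in 13.5% of all windows and in 8 of the 13 members' windows, or, by gene, in 16.2% of genes and 7 of the 9 members. Stretches around the 3-unit matches are printed first and around the 2-unit matches after them, 5′ to 3′ on the strand of the gene, with the match in capitals.
HSPA8, chr11:123062346-123062374, minus strand: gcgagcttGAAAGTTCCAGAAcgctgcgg
HSPA8, chr11:123062171-123062199, minus strand: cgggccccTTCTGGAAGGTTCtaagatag
HSP90AA1, chr14:102087112-102087140, minus strand: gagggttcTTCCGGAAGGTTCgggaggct
HSPD1, chr2:197500062-197500090, minus strand: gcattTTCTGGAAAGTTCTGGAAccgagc
HSPA1A, chr6:31815426-31815455, plus strand: cgaaaaccctgGAATATTCccgacctggca
HSPA1B, chr6:31827622-31827651, plus strand: cgaaacccctgGAATATTCccgacctggca
DNAJB1, chr19:14518456-14518485, minus strand: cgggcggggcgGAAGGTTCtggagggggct
DNAJB1, chr19:14518426-14518455, minus strand: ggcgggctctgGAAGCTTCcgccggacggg
HSPB1, chr7:76302480-76302509, plus strand: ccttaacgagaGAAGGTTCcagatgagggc

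In HSPA8 the match nearer the start covered bases −55 to −43, and in HSP90AA1 it covered −88 to −76. The HSPD1 stretch held overlapping 3-unit matches from −245 to −228 and lay between the start of HSPD1 and that of HSPE1, which is transcribed the other way from the neighbouring start. The matches of HSPA1A and HSPA1B began at −106 and −105. A match describes letters in these windows and is no measurement of HSF1 binding, which was not part of these data. HSPD1, HSP90AA1 and DNAJB1 had windows for more than 1 start, and a window without these letters says nothing about HSF1 elsewhere.

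Levels of different genes were compared within a library as TPM, in which reads are divided by transcript length and scaled to the same total over listed genes in each library. HSPA8, the constitutive cytosolic HSP70, was the highest member in all 6 libraries, with 3895 TPM with BZW2 shRNA against 2539 TPM with non-targeting shRNA in HCT116, 3719 against 2578 TPM in HT29, and 3484 against 1807 TPM in SW480. These values order genes within a library and are not a comparison of treatments. HSP90AA1, the stress-inducible cytosolic HSP90, came next in both libraries of HCT116 and of SW480, while HSPD1, the mitochondrial HSP60, came next in both libraries of HT29. HSPA1A was lowest in HCT116 and SW480 and HSPB1, the small heat shock protein HSP27, in HT29. The place of HSPA1A rests on a split of reads with HSPA1B that is uncertain, as described below. HSF1 came next to the lowest member in all 6 libraries, at 14.0 to 57.1 TPM. With 1 library per line and treatment the spread of this order between cultures is not known. The order of neighbours also depends on the length used. Per coding length, HSPE1 came above HSPD1 in the BZW2 shRNA libraries of HCT116 and SW480. It came above HSP90AA1 in both libraries of HT29, and HSPA8 stayed highest in all 6.

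**Figure D1:**
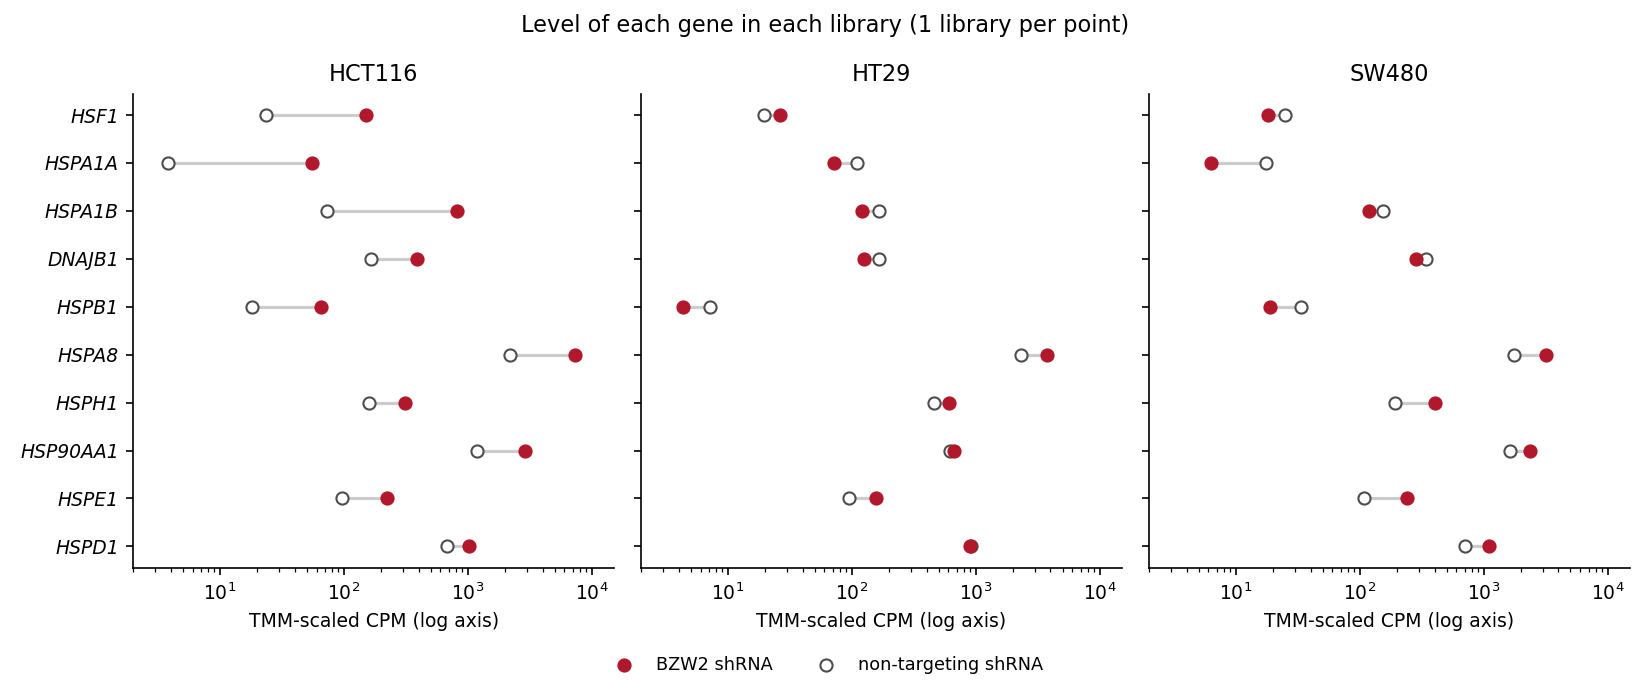
Level of the 10 genes in each library, as TMM-scaled CPM (log axis), with BZW2 shRNA as filled and non-targeting shRNA as open points and 1 panel per line. In HCT116 every filled point lies right of its open point, while in HT29 and SW480 HSPA1A, HSPA1B, DNAJB1 and HSPB1 have the filled point on the left.

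Ratios between libraries were taken within a line on CPM, reads over the library total, scaled by TMM, a factor that lines up the bulk of the genes. The libraries of each line were scaled apart from the other lines, so groups were compared by direction within lines and not by overlap across them. Intervals beside folds are 95% counting intervals and hold no spread between cultures.

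Counted over the 3 lines, 4 of the 10 members were higher with BZW2 shRNA in each line, HSPA8, HSPH1, HSP90AA1 and HSPE1, where 22.3% of all 10875 genes were. Another 4 were higher in HCT116 and lower in both HT29 and SW480, HSPA1A, HSPA1B, DNAJB1 and HSPB1, where 9.61% of all genes were. None was lower in each line, where 21.1% of all genes were. HSF1 and HSPD1 made up the rest.

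HSF1 (ENSG00000185122) had 149 CPM with BZW2 shRNA against 23.3 CPM with non-targeting shRNA in HCT116 (292 against 147 reads), 26.2 against 19.5 CPM in HT29 (235 against 182 reads), and 18.0 against 24.7 CPM in SW480 (112 against 123 reads). The BZW2 shRNA library was the higher one in HCT116 and HT29 and the lower one in SW480. The fold was 6.40 (5.23 to 7.85) in HCT116, 1.34 (1.10 to 1.64) in HT29 and 0.729 (0.559 to 0.950) in SW480. HSF1 is among the most GC-rich genes of the table at 64.7% GC, and removal of the trend on GC content and length left a log2 ratio of 1.34 in HCT116, against 2.65 before. HSF1 mRNA does not report its activity, which is set largely after translation. Its annotated span overlaps that of DGAT1, and the strandedness of the libraries is not given in the sources used here.

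HSPA1A (ENSG00000204389) and HSPA1B (ENSG00000204388) encode the stress-inducible cytosolic HSP70. They lie side by side on chromosome 6, HSPA1A at 31815464 to 31817946 and HSPA1B at 31827735 to 31830255 (GRCh38), both without introns. Their coding sequences of 1926 bases with the stop codon differ at 4 bases, and share an identical run of 1709 bases, so the split of reads between them is uncertain. HSPA1A had 55.2 CPM with BZW2 shRNA against 3.81 CPM with non-targeting shRNA in HCT116 (108 against 24 reads), 72.2 against 109 CPM in HT29 (648 against 1015 reads), and 6.27 against 17.5 CPM in SW480 (39 against 87 reads). HSPA1B had 812 against 73.0 CPM in HCT116 (1590 against 460 reads), 121 against 164 CPM in HT29 (1086 against 1529 reads), and 117 against 154 CPM in SW480 (731 against 769 reads). Both genes were higher with BZW2 shRNA in HCT116 and lower in HT29 and SW480.

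With the reads of both genes summed, which removes the uncertain split, the fold was 11.3 (10.2 to 12.5) in HCT116, 0.708 (0.666 to 0.753) in HT29 and 0.720 (0.653 to 0.795) in SW480. The HCT116 folds of HSPA1A, 14.5 (9.25 to 23.6), and HSPA1B, 11.1 (10.03 to 12.4), lay at percentiles 99.4 and 99.2 of all genes in that line. Removal of the GC and length trend left log2 ratios of 2.35 for HSPA1A and 2.17 for HSPA1B there, against 3.70 and 3.47 before, still at percentiles 98.7 and 98.1. The lines also differed in which copy the reads were counted to, and the intervals below do not cover the uncertain split. In HT29 HSPA1A held 37.4% of the reads of both genes with BZW2 shRNA (35.1 to 39.7%, exact binomial interval at 95%) and 39.9% with non-targeting shRNA (38.0 to 41.8%). In HCT116 it held 6.36% (5.25 to 7.63%) with BZW2 shRNA and 4.96% (3.20 to 7.29%) with non-targeting shRNA, and in SW480 5.06% (3.63 to 6.86%) and 10.2% (8.22 to 12.4%).

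HSPA8 (ENSG00000109971) is the constitutive partner of this inducible pair and lies on chromosome 11 at 123057489 to 123063230. It had 7263 CPM with BZW2 shRNA against 2174 CPM with non-targeting shRNA in HCT116 (14216 against 13707 reads), 3727 against 2329 CPM in HT29 (33437 against 21698 reads), and 3194 against 1760 CPM in SW480 (19874 against 8768 reads). The BZW2 shRNA library was the higher one in each line, by 3.34-fold (3.26 to 3.42), 1.60-fold (1.57 to 1.63) and 1.82-fold (1.77 to 1.86) in that order of lines. After removal of the GC and length trend the log2 ratios were 1.68, 0.63 and 0.79, close to the values before it. GENCODE names 17 pseudogenes of HSPA8, and where their reads were placed is not given in the sources used here.

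The inducible and constitutive HSP70 genes had opposite directions in HT29 and SW480. Of the reads of HSPA1B and HSPA8 together, HSPA1B held 3.15% (2.96 to 3.34%) with BZW2 shRNA against 6.58% (6.27 to 6.91%) with non-targeting shRNA in HT29, and 3.55% (3.30 to 3.81%) against 8.06% (7.52 to 8.63%) in SW480. In HCT116 it held 10.1% (9.59 to 10.5%) against 3.25% (2.96 to 3.55%). These shares compare genes within a library and do not depend on the scaling between libraries, but they hold any GC and length trend. After removal of these trends HSPA1B and HSPA8 had log2 ratios of 2.17 and 1.68 in HCT116, against 3.47 and 1.74 before. In HT29 they were −0.63 and 0.63 after it, and in SW480 −0.36 and 0.79.

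HSPH1 (ENSG00000120694), which encodes the HSP110 nucleotide exchange factor of HSP70, had 313 CPM with BZW2 shRNA against 160 CPM with non-targeting shRNA in HCT116 (613 against 1008 reads), 603 against 462 CPM in HT29 (5409 against 4306 reads), and 406 against 191 CPM in SW480 (2525 against 953 reads). It was higher with BZW2 shRNA in each line, by 1.96-fold (1.77 to 2.17), 1.30-fold (1.25 to 1.36) and 2.12-fold (1.97 to 2.29). At 40.0% GC it is the most AT-rich member, and it was the member whose HCT116 value moved up with the GC and length correction the most, to a log2 ratio of 2.28 against 0.97 before. The gene lies on chromosome 13 at 31134974 to 31162388.

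HSP90AA1 (ENSG00000080824) had 2903 CPM with BZW2 shRNA against 1185 CPM with non-targeting shRNA in HCT116 (5682 against 7468 reads), 671 against 615 CPM in HT29 (6016 against 5733 reads), and 2364 against 1625 CPM in SW480 (14710 against 8099 reads). The BZW2 shRNA library was again the higher one in each line, by 2.45-fold (2.37 to 2.54) in HCT116, 1.09-fold (1.05 to 1.13) in HT29 and 1.45-fold (1.42 to 1.49) in SW480. The HT29 ratio was at percentile 58.2 of all genes, near the middle of that line. HSP90AA1 lies on chromosome 14 at 102080738 to 102139699 and overlaps WDR20.

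DNAJB1 (ENSG00000132002) encodes HSP40, the J-domain protein that passes clients to HSP70, and lies on chromosome 19 at 14514770 to 14529770, where it overlaps TECR. It had 391 CPM with BZW2 shRNA against 166 CPM with non-targeting shRNA in HCT116 (766 against 1049 reads), 126 against 164 CPM in HT29 (1127 against 1529 reads), and 282 against 339 CPM in SW480 (1752 against 1691 reads). The folds were 2.35 (2.14 to 2.58), 0.765 (0.708 to 0.827) and 0.830 (0.776 to 0.888), so DNAJB1 had the directions of HSPA1A and HSPA1B with smaller sizes. In HCT116 the log2 ratio was 0.37 after removal of the GC and length trend, against 1.23 before.

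HSPB1 (ENSG00000106211), on chromosome 7 at 76302544 to 76304295, was a low member with 39 to 168 reads per library. It had 65.4 CPM with BZW2 shRNA against 18.2 CPM with non-targeting shRNA in HCT116 (128 against 115 reads), 4.35 against 7.19 CPM in HT29 (39 against 67 reads), and 18.8 against 33.7 CPM in SW480 (117 against 168 reads). The folds were 3.58 (2.77 to 4.65), 0.604 (0.397 to 0.910) and 0.558 (0.437 to 0.710). HSPB1 thus also had the directions of the inducible HSP70 genes, and its HCT116 log2 ratio was 0.56 after removal of the GC and length trend, against 1.81 before.

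**Figure D2:**
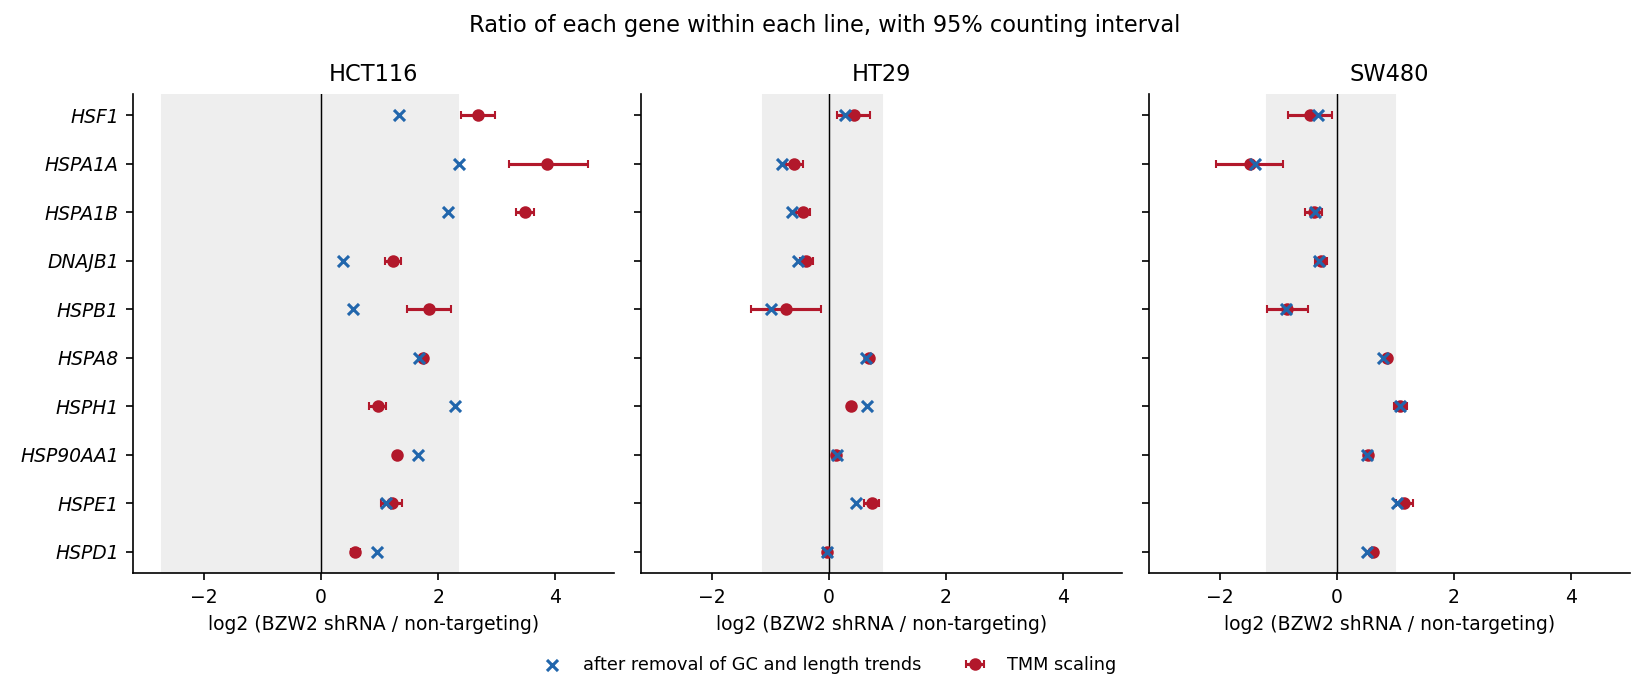
Log2 ratio of BZW2 shRNA to non-targeting shRNA for each gene in each line, with 95% counting intervals (red, no prior count) and after removal of GC and length trends (blue crosses), over the range from the 5th to the 95th percentile of all genes (grey). The lower 5 genes lie at or right of 0 in every line, while HSPA1A, HSPA1B, DNAJB1 and HSPB1 lie right of 0 in HCT116 only.

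The mitochondrial members form 1 folding chamber. HSPD1 (ENSG00000144381) encodes its HSP60 rings and HSPE1 (ENSG00000115541) its HSP10 lid, and the genes stand head to head on chromosome 2, HSPD1 at 197486581 to 197516737 and HSPE1 at 197499994 to 197503457, with overlapping annotated spans. HSPE1 had 224 CPM with BZW2 shRNA against 96.9 CPM with non-targeting shRNA in HCT116 (438 against 611 reads), 156 against 93.9 CPM in HT29 (1396 against 875 reads), and 240 against 108 CPM in SW480 (1494 against 540 reads). HSPD1 had 1015 against 678 CPM in HCT116 (1986 against 4272 reads), 892 against 911 CPM in HT29 (8000 against 8489 reads), and 1094 against 710 CPM in SW480 (6806 against 3538 reads).

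HSPE1 was higher with BZW2 shRNA in each line, by 2.31-fold (2.04 to 2.61), 1.66-fold (1.52 to 1.80) and 2.22-fold (2.01 to 2.45). HSPD1 was higher in HCT116 at 1.497-fold (1.42 to 1.58) and in SW480 at 1.54-fold (1.48 to 1.60), and its HT29 interval held 1, at 0.979 (0.949 to 1.01). HSPE1 therefore took a larger share of the reads of both genes with BZW2 shRNA in every line, 18.1% (16.6 to 19.7%) against 12.5% (11.6 to 13.5%) in HCT116, 14.9% (14.1 to 15.6%) against 9.34% (8.76 to 9.95%) in HT29, and 18.0% (17.2 to 18.8%) against 13.2% (12.2 to 14.3%) in SW480. The ratio of HSPE1 to HSPD1 was 1.54-fold higher with BZW2 shRNA in HCT116, 1.69-fold in HT29 and 1.44-fold in SW480. It does not depend on the scaling between libraries, but the genes differ in GC content and length. After removal of these trends HSPE1 and HSPD1 had log2 ratios of 1.12 and 0.95 in HCT116, nearer each other than before. In HT29 they were 0.47 and −0.04, and in SW480 1.03 and 0.51. GENCODE names 26 pseudogenes of HSPE1 and 17 of HSPD1.

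**Figure D3:**
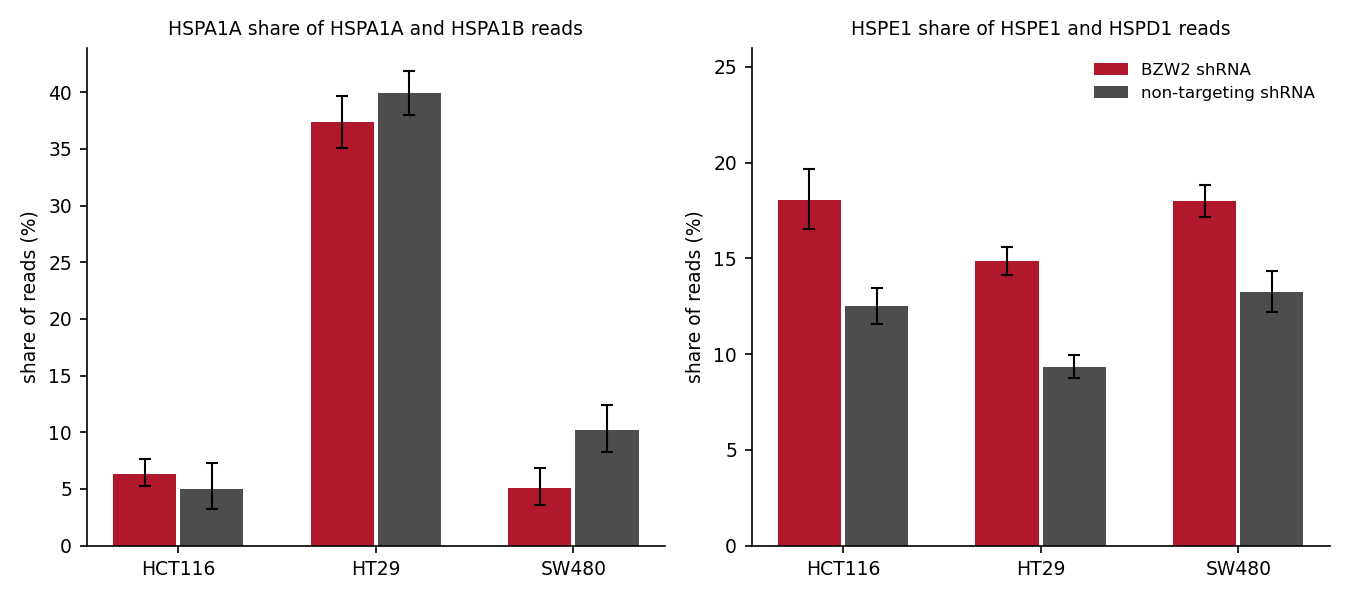
Share of reads of the first gene within 2 pairs, in percent, with BZW2 shRNA in red and non-targeting shRNA in grey and 95% binomial intervals. HSPA1A holds under 11% of the pair in HCT116 and SW480 but over 37% in HT29, and the HSPE1 share is higher with BZW2 shRNA in every line.

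At a fold of 2 or more, among genes that reached 5 CPM in 1 library of the line, 8 members were higher in HCT116, where 26.8% of genes were, and 0 lower, where 28.8% were. HSPH1 and HSPD1 fell short of that fold. With scaling by library size alone 5 members were past it in HCT116, where 19.8% of genes were, and DNAJB1, HSP90AA1 and HSPE1 then also fell short. After removal of the GC and length trend 7 members were past it in that line, where 17.1% of genes were. In HT29 0 members passed it in either direction, where 3.74% of genes were higher and 6.17% lower. In SW480 HSPH1 and HSPE1 were past it upward, where 4.98% of genes were, and HSPA1A downward, where 7.36% were.

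Across the 3 lines, with each line as its own control, limma called 0 of the 10875 genes at an adjusted p under 0.05, so percent called was 0 for the members as for the rest. BZW2, the target of the hairpin, was not called either, at −2.92 ± 0.40 (SE as moderated by limma, limma adjusted p = 0.155). A gene not called here is therefore not shown to be unchanged. An unadjusted p under 0.05 was reached by 717 genes in the higher and 766 in the lower direction. DESeq2 on the recovered reads called 244 genes, BZW2 among them (DESeq2 adjusted p = 9.42e-08) but none of the members, and edgeR called 0. These p-values rest on the spread among the 3 lines, moderated by the spread over all genes. They hold no spread between cultures of a line, since no repeat cultures are described. HSPE1 had a log2 fold change of 1.06 ± 0.35 (SE as moderated by limma, limma adjusted p = 0.310). HSPA8 stood at 1.13 ± 0.43 (limma adjusted p = 0.341) and HSPH1 at 0.85 ± 0.36 (limma adjusted p = 0.359). These 3 were the members under an unadjusted p of 0.05, higher in 3 of 3 lines each, where 6.59% of all genes were under it in that direction.

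The other 7 members had log2 fold changes of 0.91 ± 0.58 for HSF1, 0.91 ± 0.70 for HSPA1B, 0.69 ± 0.41 for HSP90AA1, 0.61 ± 0.85 for HSPA1A, 0.43 ± 0.38 for HSPD1, 0.23 ± 0.42 for DNAJB1 and 0.13 ± 0.58 for HSPB1, with limma adjusted p from 0.429 to 0.922. The sign was positive for all 10 members, where 51.1% of all genes had a positive one. For 4 of them the sign rested on HCT116. Without that line the log2 fold change was −0.99 for HSPA1A (limma adjusted p = 0.0969), −0.75 for HSPB1, −0.39 for HSPA1B and −0.30 for DNAJB1, and it was 0.01 for HSF1. HSPE1 kept 0.97 (limma adjusted p = 0.0645), HSPA8 0.80 and HSPH1 0.76. Without HCT116 limma called 3.11% of all genes, 1.72% in the higher and 1.39% in the lower direction, and 0 of the 10 members.

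Cytosolic and mitochondrial members were compared by the median log2 ratio of each group in each line. HCT116 had a cytosolic median of 1.74 and a mitochondrial one of 0.89. In HT29 they were −0.39 and 0.35, and in SW480 −0.27 and 0.88, where the median of all genes lay between −0.02 and 0.02. The cytosolic median minus the mitochondrial one was thus 0.85 for HCT116, −0.73 for HT29 and −1.15 for SW480, with a mean of −0.35 ± 1.05 (SD, n = 3 lines). The difference had no shared direction and its mean was smaller than its spread. Across lines the mitochondrial median averaged 0.71 ± 0.31 and the cytosolic one 0.36 ± 1.19 (SD, n = 3 lines each).

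The cytosolic group was not of 1 kind, and its median hid that split. Without HSPA1A and HSPA1B the difference shrank to 0.40, −0.22 and −0.34 in the 3 lines, and with their reads summed to 1 gene it was 0.62, −0.48 and −0.75. Summed cytosolic reads, which HSPA8 dominates, were higher with BZW2 shRNA in every line, although the cytosolic medians of HT29 and SW480 were below 0. Cytosolic members held 1.06% of all reads with BZW2 shRNA against 0.422% with non-targeting shRNA in HCT116, where HT29 had 0.533% against 0.385% and SW480 0.651% against 0.404%. Mitochondrial members held 0.111% against 0.0866% of all reads in HCT116, where HT29 had 0.105% against 0.1005% and SW480 0.136% against 0.0803%. The binomial intervals at 95% of these shares did not overlap within a line, but they cover counting error only and hold no spread between cultures. The shares use library totals without TMM scaling, under which the HCT116 median log2 ratio of all genes was −0.33.

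GC content moved with the members' ratios in HCT116 and is given beside them for that reason. In that line genes near 58% GC had a median log2 ratio of 1.16 and genes near 42% GC −0.97, where the same bins had 0.21 and −0.10 in HT29 and −0.02 and 0.04 in SW480. HSF1, HSPA1A, HSPA1B and HSPB1 lie between 58.7 and 64.7% GC. With the trend on GC content and length removed, all 10 members kept a positive log2 ratio in HCT116, where 5887 of 11360 genes had one. The members' values ran from 0.37 for DNAJB1 to 2.35 for HSPA1A. The HCT116 BZW2 shRNA library was also the shallowest of the 6, and the part of its depth in that trend was not tested.

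**Figure D4:**
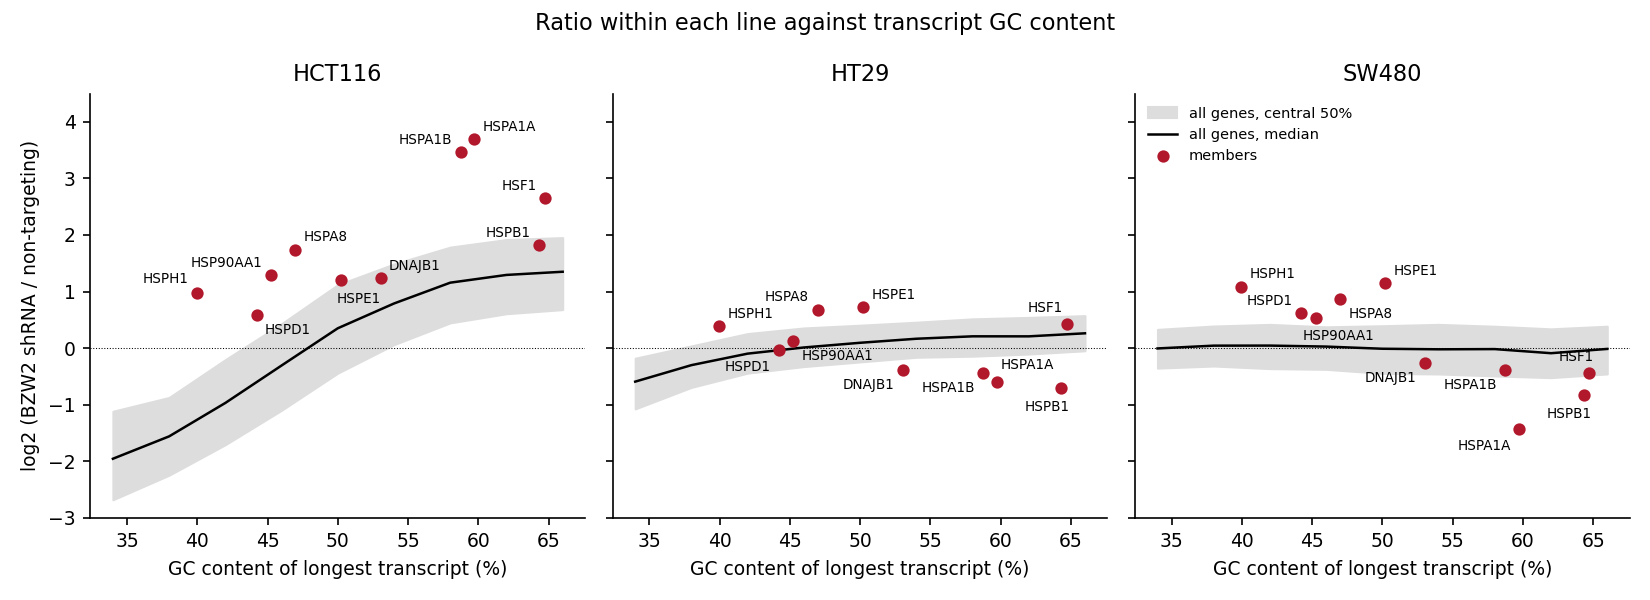
Log2 ratio of BZW2 shRNA to non-targeting shRNA against GC content of the longest transcript (%), with the median (line) and central 50% (band) of all genes in GC bins and the 10 members in red. The line climbs with GC in HCT116, from −1.96 to 1.35, and is nearly flat in SW480, where HSPA1A, HSPB1, HSF1, HSPA1B and DNAJB1 lie below 0.

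Other genes of the folding machinery were counted from lists of their partners. The cytosolic chaperonin TRiC, a ring of 8 subunits that folds actin and tubulin, had all 8 subunit genes higher with BZW2 shRNA in each line, where 22.3% of all genes were. Its median log2 ratio was 1.12 for HCT116, 0.43 for HT29 and 0.67 for SW480. TCP1, its alpha subunit, had 927 CPM with BZW2 shRNA against 360 CPM with non-targeting shRNA in HCT116, 290 against 210 CPM in HT29 and 836 against 399 CPM in SW480. The log2 fold change across lines was 1.09 ± 0.42 for CCT7, 1.00 ± 0.37 for TCP1 and 0.95 ± 0.38 for CCT5, and 0 of the 8 passed limma at an adjusted p under 0.05. The 8 subunits kept their direction in each line under every scaling run and after removal of the GC and length trends. Windows of 7 of these genes were in the promoter table, and 0 held the 3-unit letters, where 0.608% of all genes did. At that share, 0 of 7 does not set these genes apart. Among genes with a window in the lists below, 2 of 12 HSP90, 1 of 9 HSP70 and 2 of 15 J-domain genes held them. Counts were 1 of 9 for HSF1 targets outside the chaperones, 0 of 5 for prefoldin and 0 of 15 for the wider mitochondrial list. Further small heat shock protein genes had 0 of 2, and further heat shock factors and partners 0 of 3.

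The HSP90 list of 14 genes held partners of HSP90 and also HSP90AB1, which encodes a cytosolic HSP90 itself. Of the 14, 13 were listed in all 3 lines. Of these, 8 were higher with BZW2 shRNA in each line, where 22.3% of all genes were, and 0 lower. HSP90AB1 was among the 8, with log2 ratios of 1.86, 0.25 and 0.29 for HCT116, HT29 and SW480. FKBP4, an HSP90-bound immunophilin, had log2 ratios of 2.55, 0.44 and 0.65 for HCT116, HT29 and SW480. AHSA1, the activator of the HSP90 ATPase, had 1.97, 0.69 and 0.85, and STIP1, which hands clients from HSP70 to HSP90, had 1.85, 0.33 and 0.58. Without HCT116, CACYBP, 1 of these 13 genes, passed limma in the higher direction, at 1.06 (adjusted p = 0.0420), where 1.72% of all genes did.

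Of 12 further genes of the HSP70 system, 10 were listed in all lines, of which 5 were higher in each line and 0 lower, where 22.3% and 21.1% of all genes were. The exchange factor gene HSPBP1 had log2 ratios of 2.77, 0.32 and 0.77, and BAG1, another exchange factor, 0.59, 0.24 and 0.54 in HCT116, HT29 and SW480. Of 15 further J-domain genes 3 were higher in each line and 2 lower, shares no larger than those of all genes, with DNAJC9, a histone chaperone, at 1.02, 0.25 and 0.84, DNAJA1, a cytosolic HSP70 partner, at 0.60, 0.29 and 1.16 and DNAJB4 at −0.83, −0.67 and −0.48. Prefoldin, which delivers nascent chains to TRiC, had 1 of its 6 genes higher in each line, PFDN6, and 1 lower, PFDN2, again below the shares of all genes. The prefoldin median in HCT116 was −1.14, against 1.12 for TRiC. These ratios and counts hold the GC and length trends. With the trends removed DNAJB4 had 1.09, 0.09 and −0.58 and PFDN6 −0.88, 0.46 and 0.49, so neither kept 1 direction. HSPBP1, BAG1, DNAJC9, DNAJA1 and PFDN2 kept theirs in each line.

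The wider set of 18 mitochondrial folding and proteolysis genes had 6 higher in each line and 2 lower, where 22.3% and 21.1% of all genes were. Its median log2 ratio was 0.69 for HCT116, 0.10 for HT29 and 0.07 for SW480, below that of HSPD1 and HSPE1 in each line. CLPB, the mitochondrial disaggregase, had 2.09, 0.46 and 0.13, the matrix protease gene CLPP 1.71, 0.56 and 0.32, and SPG7, a protease of the inner membrane, 1.14, 0.91 and 0.10. HSPA9, the mitochondrial HSP70, had 0.11, −0.86 and −0.21. Of the further small heat shock protein genes, 0 of 5 were listed in all lines.

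**Figure D5:**
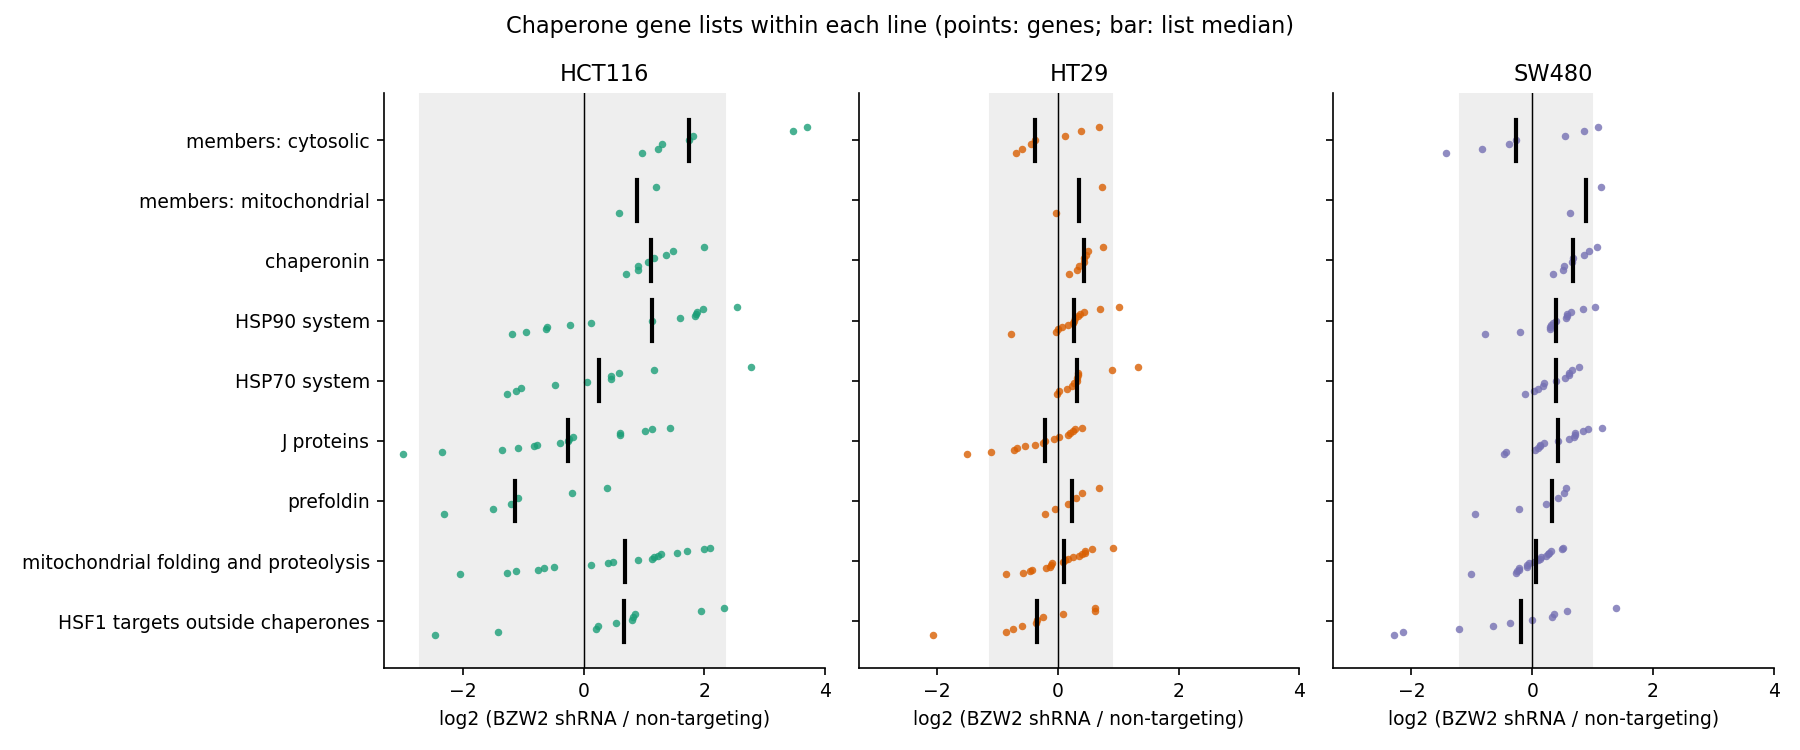
Log2 ratio of BZW2 shRNA to non-targeting shRNA for the members and for lists of other chaperone genes, with 1 point per gene, a bar at the list median, and the range from the 5th to the 95th percentile of all genes in grey. The 8 chaperonin genes lie right of 0 in every line, and the cytosolic members lie on both sides of 0 in HT29 and SW480.

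Likeness of pattern was measured as the distance between the 3 log2 ratios of 2 genes, over the 3 lines and 6842 genes with at least 100 reads in each non-targeting library. The genes nearest to HSPH1 were RAD51C, TRIAP1, CCT2, JADE1 and TRUB2, at distances from 0.149 to 0.203, and CCT2 is a TRiC subunit. HSPE1 came at rank 54 to HSPH1. The genes nearest to HSPD1 were PLAA, ILKAP, G3BP1, TIMM17A and TGFBRAP1, at distances from 0.0835 to 0.166. HSPE1, its head-to-head neighbour, came at rank 1997 to HSPD1. With 3 points a gene, a small distance is a description of these libraries only.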

How the data were processed

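RNA-seq of 6 libraries was used, 1 per line and treatment. The members and lists were chosen with earlier results of these data known. Per the submitters' processing notes, the tools were bcl2fastq 2.17, STAR 2.5.2b and DESeq on GRCh38. Strandedness is not given in the sources used here, nor is the gene counter. Each deposited value is a signal that the authors made by dividing a gene's read count by a size factor set within its line, as its steps show. Division by the step gave whole reads, within 0.1 read, for 100% of values. The smallest SW480 non-targeting value stood for 2 reads. Genes with under 21 reads summed over a line's libraries were not listed. Of 266314 rows with 13040 identifiers, 19 repeated identifiers were left out, and 0 columns were of other samples. Symbols matched 13003 identifiers, and GENCODE 29 matched 13018.

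The design allowed for counts or normalised values. For this signal, limma 3.58.1 (R 4.3.3) was fitted to log2 of value plus 1, over all 10875 genes, with values of 1 or more required in 3 libraries, with line and treatment as terms. Tests were two-sided with Benjamini-Hochberg adjustment at 0.05. Fold changes on this scale understate low genes. Residual degrees of freedom were 2 and prior ones 7.26. The shared line pairs the libraries, whose deviations from group means had correlations of 0.28 (HCT116), 0.75 (HT29) and 0.45 (SW480). Within lines, edgeR 4.0.16 gave TMM scaling and log2 ratios with a prior count of 2, and exact Clopper-Pearson 95% intervals cover counting error only. GC and length trends were fitted with mgcv 1.9.3. Alternatives were DESeq2 1.42.0, edgeR and voom on recovered reads, other pseudocounts, filters and scalings, and each line left out. The fits were tested on simulated counts with large changes shared by all lines, without the GC trend or the wider spread of HCT116. That run does not measure their error on these data. Genes named were the 10 members, BZW2, up to 3 per list with the largest mean log2 ratio among those of 1 sign in all lines, and the 5 nearest to HSPH1 and HSPD1. CACYBP, HSP90AB1, HSPA9, JUN, HSF2 and HSBP1 were named after their values were seen.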

Additional observations from a re-analysis of the deposited data

Results flagged for a closer look

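For 5 members the libraries of different lines moved in opposite directions with BZW2 shRNA, and the difference between lines was not tested because each line had 1 library per treatment. The highest log2 ratio of a line minus the lowest was 5.34 for HSPA1A, 3.92 for HSPA1B, 2.68 for HSPB1 and 1.62 for DNAJB1, each with HCT116 higher and HT29 and SW480 lower. For HSF1 it was 3.13, with HCT116 and HT29 higher and SW480 lower. In every one of the 5 the highest line was HCT116, where the spread over all genes was also the largest of the 3 lines.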

How the results depend on the processing

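Pseudocounts of 0.5 and 5, no filter, a stricter filter, voom, edgeR and a fit with no replicate block left 0 genes past the threshold, and DESeq2 gave 244. Without the block the smallest adjusted p was 1.00, and the block changed no call. With 1 line left out, 57 to 338 genes passed, and 6 to 10 members had a positive fold change, 6 without HCT116. Without that line, replicate 1, signs turned, and ranges over the lines left out ran from −0.99 to 1.62 for HSPA1A, −0.39 to 1.58 for HSPA1B, −0.30 to 0.52 for DNAJB1 and −0.75 to 0.59 for HSPB1. The cytosolic median averaged −0.33 without HCT116 and 0.74 without HT29. The cytosolic minus mitochondrial difference ran from −0.94 without HCT116 to 0.06 without SW480. The wider mitochondrial list in place of HSPD1 and HSPE1 gave 0.29, against 0.71. Of 30 member and line values, 10 were at least 2-fold higher, 7 with scaling by library size alone (5 against 8 in HCT116), 9 after GC and length removal, and 2 to 10 with 1 line left out. Library size alone moved the HCT116 median of all genes to −0.33. The summed HSPA1A and HSPA1B reads, the GC and length correction of group medians and all alternatives for the lists were chosen after seeing the data. Summed over the 6 libraries, HSPB1 had the fewest reads of the members at 634, followed by HSF1 at 1091.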

Other observations

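Genes that HSF1 is known to induce outside the chaperones did not share 1 direction. Of 10 on the list, 2 were higher with BZW2 shRNA in each line, MRPL18 and UBB, and 1 was lower, ATF3, where 22.3% of all genes were higher and 21.1% lower. These shares do not stand above those of all genes. MRPL18, a protein of the mitochondrial ribosome, had log2 ratios of 1.94, 0.61 and 1.39 for HCT116, HT29 and SW480, and UBB, which encodes polyubiquitin, 0.85, 0.61 and 0.35. ATF3, a stress-induced transcription factor, had −1.42, −2.07 and −2.30. Its log2 fold change across the 3 lines was −1.90 ± 0.40 (SE as moderated by limma, limma adjusted p = 0.250). Without HCT116, ATF3 and JUN passed limma in the lower direction, at −2.16 and −1.34, where 1.39% of all genes did. JUN had a log2 ratio of 0.54 in HCT116, the other direction, against −0.60 in HT29 and −2.13 in SW480. With GC and length trends removed JUN was lower in each line, at −0.47, −0.72 and −2.07. Across the 3 lines JUN stood at −0.70 before that removal (limma adjusted p = 0.503). ATF3 is also induced by other stress pathways.

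HSF2, a relative of HSF1, had log2 ratios of −1.53, −0.31 and 0.05 for the lines in that order. HSBP1, which binds the trimer domain of HSF1, had −0.45, 0.78 and 0.60. Neither had the directions of HSF1. With GC and length trends removed HSF2 had −0.57, −0.17 and −0.09 and HSBP1 0.48, 0.95 and 0.82. HSBP1 then had the direction of HSF1 in HCT116 and HT29 but not in SW480.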
